A study of Mus musculus with 12 samples.

Results

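Glutamate and aspartate are carried across the plasma membrane and across the inner mitochondrial membrane by proteins of separate families. The 5 genes for such carriers described here, Slc1a1, Slc1a3, Slc25a12, Slc25a13 and Slc25a22, were taken by name from the deposited expression table, and all 5 stood among its 19439 entries. Expression was measured by RNA sequencing in 2 lines of 3T3 mouse embryonic fibroblasts (MEFs), fibroblasts of mouse embryos that were passaged until they divided without limit. The p53-null line was labelled p53 -/- and the WT line was labelled wild type for p53, the transcription factor encoded by Trp53. The 4 groups were p53-null cells without glutamine, p53-null cells in complete medium, WT cells without glutamine and WT cells in complete medium, each with 3 libraries. Every culture spent 18 h in DMEM, a standard culture medium, with glucose at 25 mM. The medium either lacked glutamine (glutamine-free) or held it at 2 mM (complete). Each genotype was represented by 1 line, so the state of Trp53 and any other difference between the lines cannot be told apart. The labels give neither the Trp53 allele nor say that the 3 libraries per group stem from separate cultures. The p-values below therefore rest on the spread among these libraries alone, and that spread may be technical. In bulk RNA, fewer cells that carry a transcript and less of it per cell cannot be told apart.

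Carriers of the SLC1 family take glutamate and aspartate up into the cell together with sodium. Slc1a1 encodes the transporter known as EAAT3 or EAAC1, and Slc1a3 encodes EAAT1, also called GLAST, which is best known from astroglia. Slc25a12 and Slc25a13 encode aralar and citrin, a pair of calcium-regulated carriers of the inner mitochondrial membrane. They bring aspartate out of the matrix in exchange for glutamate, a step of the malate-aspartate shuttle that moves reducing equivalents into mitochondria. Citrin is the main form in liver and aralar in brain and muscle. Slc25a22 encodes a carrier that brings glutamate into the matrix together with a proton. In human colon cancer cells, earlier work tied SLC1A3 and aspartate uptake to survival without glutamine, which is background here and was not measured.

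Expression values were RPKM, that is, reads divided by gene length and by library depth, so levels of different genes can be set side by side. The RPKM sum per library was 284426 to 292236 in the p53-null line and 313165 to 319735 in the WT line, so it differed between the lines. The steps between low values put the depth at 37.7 to 46.85 M reads, and libraries of a group correlated at 0.998 to 0.999. Trp53 (chromosome 11, 69580359 to 69591873, plus strand) averaged, in glutamine-free medium, 34.6 ± 0.614 RPKM in p53-null cells and 112 ± 2.22 RPKM in WT cells (SD, n = 3 each). In complete medium it averaged 28.8 ± 0.873 RPKM in p53-null cells and 58.5 ± 0.585 RPKM in WT cells. Trp53 RNA was thus lower in the p53-null line but not absent, and a table with 1 value per gene cannot tell which exons were read. Of 10 fibroblast markers, 9 averaged at least 1 RPKM in every group. Thy1 was the exception. Levels of these markers differed between the lines, as given below.

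**Figure D1:**
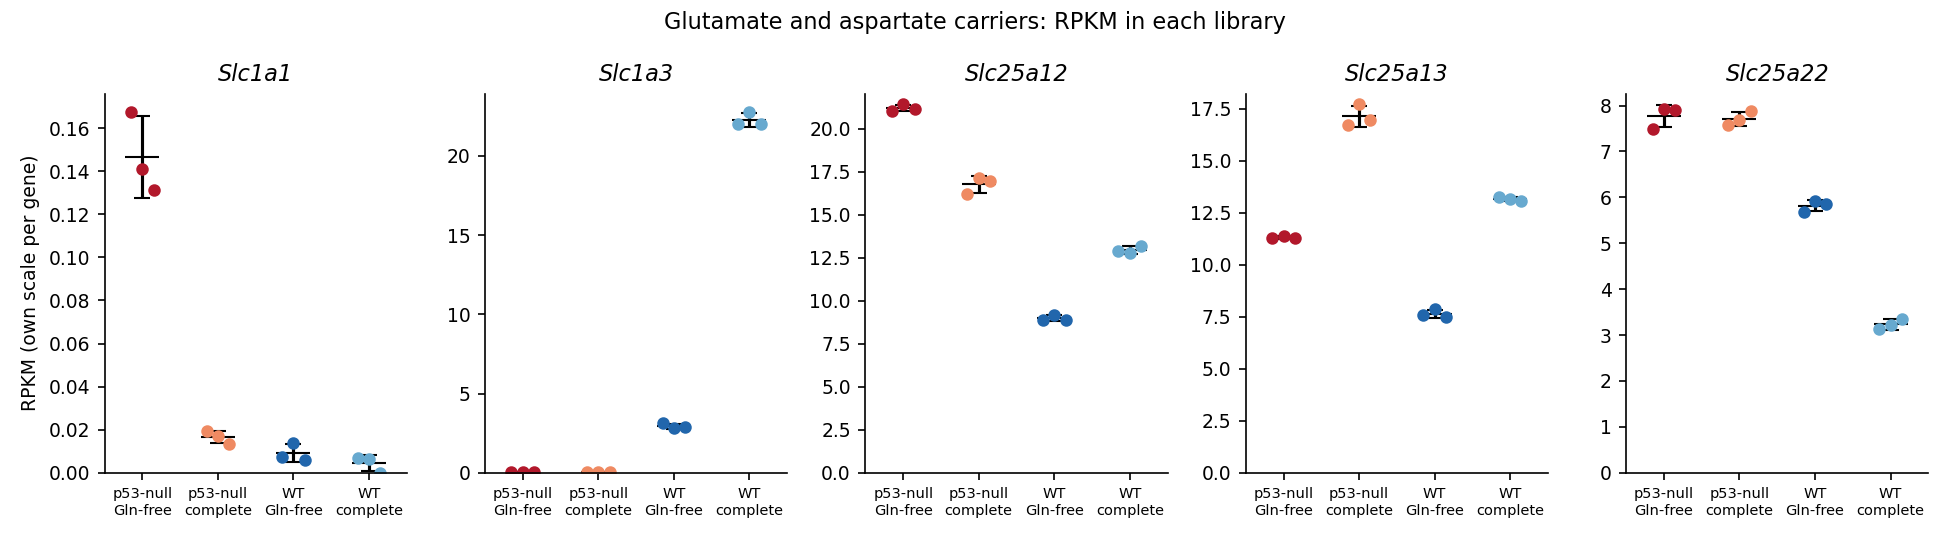
RPKM of the 5 carriers in each of 12 libraries (points), with the mean and SD of each group of 3 (bars); each gene has its own linear axis from 0. Slc1a3 lies above 20 RPKM only in WT cells in complete medium, Slc1a1 stays under 0.2 RPKM everywhere, and Slc25a12 and Slc25a13 differ in the direction of their medium response in the p53-null line.

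Slc1a3, the plasma membrane carrier (ENSMUSG00000005360, chromosome 15, 8634124 to 8710764, minus strand, mm10), was the most abundant of the 5 carriers in WT cells in complete medium and was near 0 in p53-null cells in either medium. The p53-null libraries without glutamine held 0.0634, 0.0509 and 0.0420 RPKM, and those in complete medium held 0.0226, 0.0355 and 0.0652 RPKM. The WT libraries without glutamine held 3.11, 2.80 and 2.86 RPKM, and those in complete medium held 22.0, 22.8 and 22.0 RPKM. All 6 WT libraries lay above all 6 p53-null libraries, and the WT groups did not overlap each other, whereas the p53-null groups did. The estimated read numbers behind these values were 12, 9 and 8 in p53-null cells without glutamine and 4, 7 and 11 in p53-null cells in complete medium. In WT cells they were 494, 460 and 527 without glutamine and 3639, 3950 and 3789 in complete medium. The p53-null values thus rest on few reads.

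In the WT line, mean Slc1a3 was 7.62-fold lower without glutamine, at 2.92 ± 0.167 RPKM against 22.3 ± 0.456 RPKM in complete medium (SD, n = 3 each). On the log2(RPKM + 1) scale the change was -2.57 (SE 0.035, limma adjusted p = 6.63e-16). It was the 125th largest fall among 5642 genes with a negative change. In the p53-null line the means were 0.0521 ± 0.0107 RPKM without glutamine and 0.0411 ± 0.0218 RPKM in complete medium. The log2 change of 0.02 had a 95% interval of -0.06 to 0.09 (limma adjusted p = 0.701), so no medium response was detectable at this depth. With each library centred on its median, the same difference was -0.09 (limma adjusted p = 0.0343). Centring moved every gene in this comparison by -0.11, also genes near 0 RPKM such as Slc1a3 here. The centred value is thus not read as a fall of Slc1a3. The test of the difference between the responses, p53-null minus WT, gave 2.58 (SE 0.050, limma adjusted p = 8.27e-14). The p53-null level leaves almost no room for a fall on this scale, so that value restates the fall in WT cells.

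Between the lines, mean Slc1a3 was 56.2-fold lower in p53-null than in WT cells in glutamine-free medium and 542-fold lower in complete medium. Summed over the libraries, p53-null cells had 29 reads without glutamine against 1482 in WT cells, a depth-scaled WT to p53-null ratio of 56.1 with a 95% exact counting interval of 38.9 to 84.0. In complete medium they had 22 reads against 11377, a ratio of 550.2 with an interval of 363 to 878. Without glutamine the log2 change was -1.90 (limma adjusted p = 1.50e-14), the 214th largest fall of 5094. In complete medium it was -4.48 (limma adjusted p = 4.82e-18), the 34th largest fall of 5373. With a pseudocount of 0.1, which shrinks low values less, the differences were -4.31 without glutamine and -7.32 in complete medium. The medium change in the WT line was -2.89 with that pseudocount. Slc1a3 passed the filter on low values only through its WT libraries, so a difference between the lines was to be found for it once it was tested.

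Astroglia are the cells best known for Slc1a3. The 6 of 7 astroglial markers in the table summed to at most 0.214 RPKM in any library, and none averaged 1 RPKM in any group. Some neuronal markers were listed at higher levels in the WT line. The 5 of 6 neuronal markers in the table summed in p53-null cells to 2.26 to 2.32 RPKM without glutamine and to 1.69 to 1.96 RPKM in complete medium. They summed to 21.5 to 21.9 RPKM in WT cells without glutamine and to 39.5 to 40.1 RPKM in WT cells in complete medium. Stmn2, a tubulin-binding protein of growing axons, was listed at 0 in every p53-null library and averaged 2.66 ± 0.172 RPKM without glutamine and 23.5 ± 0.883 RPKM in complete medium in WT cells. Tubb3, a neuronal tubulin, averaged 16.5 ± 0.255 RPKM without glutamine and 13.4 ± 0.565 RPKM in complete medium in WT cells, so it was not lower without glutamine there. Snap25, a protein of synaptic release, averaged under 0.1 RPKM in each group and was higher in the p53-null groups. Of the 5 epithelial markers, the keratins Krt18 and Krt19 were higher in p53-null cells and made up nearly the whole sum. Cdh1, the adhesion protein E-cadherin, averaged under 0.1 RPKM in each group and was not higher in the p53-null groups. In p53-null cells the 5 markers summed to 82.5 to 84.7 RPKM without glutamine and to 77.2 to 78.4 RPKM in complete medium, against at most 0.252 RPKM in any WT library. The fibroblast markers themselves summed to 1432 to 1458 RPKM in p53-null cells without glutamine and 2503 to 2540 RPKM in complete medium, and in WT cells to 1028 to 1036 RPKM without glutamine and 4125 to 4145 RPKM in complete medium. In complete medium, 8 of the 9 tested were called lower and 1 higher in p53-null cells (limma adjusted p under 0.05). The shares of all tested genes were 42.5% and 48.4%. Without glutamine 5 were lower and 4 higher, against 40% and 51.4% of all tested genes. In complete medium S100a4 averaged 19.3 RPKM in p53-null and 945 RPKM in WT cells. Vim, the 1 that was higher, averaged 1730 and 760 RPKM. The part of these marker differences in the Slc1a3 result was not tested.

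The promoter windows of Slc1a3 and of both aspartate/glutamate exchangers are shown because these genes carry the largest difference between the lines and the opposite medium responses described next. Windows run from 250 bases before to 50 bases after the transcription start and come from RefSeq (GRCm38.p6). All 5 genes matched an entry, and Slc25a22 has 3. Capitals mark matches, on either strand, to any of 5 motifs. These were the amino acid response element TGATGNAAT, a CRE-like element TGACGTC, an AP-1 element TGANTCA, the E-box CACGTG, and the p53 half-site.
Slc1a3, chr15:8710758-8711057, minus strand: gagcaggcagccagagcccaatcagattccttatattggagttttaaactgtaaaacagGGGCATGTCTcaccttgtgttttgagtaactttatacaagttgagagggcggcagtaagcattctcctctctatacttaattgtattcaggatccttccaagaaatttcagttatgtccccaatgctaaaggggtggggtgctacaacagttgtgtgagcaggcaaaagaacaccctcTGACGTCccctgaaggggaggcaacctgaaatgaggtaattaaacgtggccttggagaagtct
Slc25a12, chr2:71367706-71368005, minus strand: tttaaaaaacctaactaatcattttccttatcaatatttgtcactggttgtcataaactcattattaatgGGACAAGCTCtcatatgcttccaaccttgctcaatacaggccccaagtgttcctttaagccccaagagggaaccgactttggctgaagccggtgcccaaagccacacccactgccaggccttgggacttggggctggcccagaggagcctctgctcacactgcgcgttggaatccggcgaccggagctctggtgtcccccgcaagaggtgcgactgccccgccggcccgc
Slc25a13, chr6:6217124-6217423, minus strand: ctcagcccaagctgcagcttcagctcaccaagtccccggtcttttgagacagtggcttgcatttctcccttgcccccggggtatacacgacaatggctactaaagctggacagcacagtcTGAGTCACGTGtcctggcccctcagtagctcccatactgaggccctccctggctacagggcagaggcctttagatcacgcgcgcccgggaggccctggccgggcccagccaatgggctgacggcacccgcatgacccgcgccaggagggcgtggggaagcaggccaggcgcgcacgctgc
The Slc1a3 window held a p53 half-site that begins at position -191 from the start and a CRE-like element that begins at -13. The Slc25a12 window held a p53 half-site at -180. In the Slc25a13 window an AP-1 element at -130 shares bases with an E-box at -125. No motif matched in the window of Slc1a1, and 2 of the 3 windows of Slc25a22 held a p53 half-site. Among all 32851 windows in the table, 8.36% held a p53 half-site, 3.21% the CRE-like element, 7.81% the AP-1 element, 7.15% the E-box and 0.965% the amino acid response element. A match describes the letters of the window and shows no binding.

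Slc1a1, the other plasma membrane carrier among the 5 (ENSMUSG00000024935, chromosome 19, 28835049 to 28913960, plus strand), was near the limit of detection. The p53-null libraries without glutamine held 0.168, 0.141 and 0.131 RPKM, and those in complete medium held 0.0192, 0.0173 and 0.0134 RPKM. The WT libraries held 0.00715, 0.0138 and 0.00615 RPKM without glutamine, and 0.00686 and 0.00655 RPKM in complete medium, where the remaining library was listed at 0. The p53-null libraries without glutamine stood above all other libraries, and the WT groups overlapped. In reads, these values corresponded to 28, 22 and 22 in p53-null cells without glutamine and to 3, 3 and 2 in p53-null cells in complete medium. They corresponded to 1, 2 and 1 in WT cells without glutamine and to 1, 1 and 0 in WT cells in complete medium. A length factor for the gene was chosen to bring these estimates nearest to whole reads. Every estimate then lay within 0.0067 of a whole read, a closeness that the choice sought and that is no separate check.

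Summed over the libraries of a group, Slc1a1 had 72 reads in p53-null cells without glutamine and 8 in complete medium. Scaled to depth, this is a ratio of 8.78 with a 95% exact counting interval of 4.23 to 21.1. Without glutamine, p53-null cells had 72 reads against 4 in WT cells, a ratio of 16.4 with an interval of 6.14 to 61.8. In complete medium the 8 reads of p53-null cells stood against 2 in WT cells, with a ratio of 3.76 and an interval of 0.750 to 36.3. In the WT line, 4 reads without glutamine stood against 2 in complete medium, with a ratio of 2.01 and an interval of 0.288 to 22.2. The intervals of the last 2 ratios include 1, so no difference was detectable there at this depth. The intervals cover counting error only.

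Slc1a1 did not pass the filter of 1 RPKM in 3 libraries and was not among the 11461 genes tested. With no filter, limma gave a log2 change of 0.17 for the medium in the p53-null line (adjusted p = 1.35e-07) and of 0.01 in the WT line (adjusted p = 0.649). A pseudocount of 1 is far above these levels, so the log2 values understate the ratios. Of the exon bases of Slc1a1, 31.9% lie under 4430402I18Rik, which is transcribed from the opposite strand. The kit used keeps no strand information, so reads of both genes could be mixed there. 4430402I18Rik was listed at 0.0105, 0.0342 and 0.0104 RPKM in p53-null libraries without glutamine and at 0.0112, 0.0303 and 0.0594 RPKM in those in complete medium. These p53-null groups overlapped. In WT libraries it was listed at 0, 0.0247 and 0.0214 RPKM without glutamine and at 0.0363, 0 and 0.0120 RPKM in complete medium. How reads in the shared stretch were assigned is not known. The part of 4430402I18Rik in the Slc1a1 values was not tested.

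Slc25a12 (aralar, ENSMUSG00000027010, chromosome 2, 71271063 to 71367749, minus strand) was higher without glutamine in the p53-null line and lower without glutamine in the WT line. The p53-null libraries held 21.0, 21.4 and 21.2 RPKM without glutamine and 16.2, 17.2 and 16.9 RPKM in complete medium. The WT libraries held 8.89, 9.20 and 8.88 RPKM without glutamine and 12.9, 12.8 and 13.2 RPKM in complete medium. No groups overlapped, and the order was p53-null without glutamine, p53-null in complete medium, WT in complete medium and WT without glutamine. Slc25a12 rose by 26.5% in the p53-null line, a log2 change of 0.32 (SE 0.024, limma adjusted p = 3.57e-08). After quantile normalization that change was 0.18 and still called. It fell by 30.6% in the WT line, a log2 change of -0.48 (SE 0.024, limma adjusted p = 2.57e-10). The responses differed by 0.80 on the log2 scale, p53-null minus WT (SE 0.033, limma adjusted p = 1.02e-10). With these opposite responses, the lines lay farther apart without glutamine, where Slc25a12 was 2.36-fold higher in p53-null than in WT cells, a log2 change of 1.15 (limma adjusted p = 3.91e-14). In complete medium the log2 change was 0.35 (limma adjusted p = 8.50e-09). Of the 50-base words of its transcripts, 2.62% also occur in other genes.

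Slc25a13 (citrin, ENSMUSG00000015112, chromosome 6, 6041218 to 6217173, minus strand) was lower without glutamine in both lines. The p53-null libraries held 11.3, 11.4 and 11.3 RPKM without glutamine and 16.7, 17.7 and 17.0 RPKM in complete medium. The WT libraries held 7.59, 7.86 and 7.49 RPKM without glutamine and 13.3, 13.2 and 13.1 RPKM in complete medium. No groups overlapped. Slc25a13 fell by 34.0% in the p53-null line, a log2 change of -0.56 (SE 0.024, limma adjusted p = 1.92e-10), and by 42.0% in the WT line, a log2 change of -0.71 (SE 0.024, limma adjusted p = 4.94e-12). Among falls in the p53-null line it ranked 893rd of 4704, and among falls in the WT line 2232nd of 5642. The responses differed by 0.16, p53-null minus WT (SE 0.034, limma adjusted p = 9.31e-04). That difference was 0.05 with each library centred on its median (limma adjusted p = 0.156) and near 0 after quantile normalization, so its call depends on the scaling. Citrin RNA was higher in p53-null than in WT cells in both media, with log2 changes of 0.51 without glutamine (limma adjusted p = 1.92e-10) and 0.36 in complete medium (limma adjusted p = 8.90e-09).

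The balance of the exchangers was compared within each library as the share of Slc25a13 in the sum of Slc25a12 and Slc25a13. These genes share no 50-base word, so their reads can be told apart. In p53-null cells the share was 34.9, 34.7 and 34.8% without glutamine and 50.8, 50.8 and 50.1% in complete medium. In WT cells it was 46.1, 46.1 and 45.8% without glutamine and 50.7, 50.8 and 49.8% in complete medium. In complete medium each line thus held both RNAs in nearly equal parts by RPKM. Without glutamine, aralar RNA made up the larger part in both lines, more so in the p53-null line. Without minus with glutamine, the share differed by -15.8 percentage points in the p53-null line and by -4.48 points in the WT line, with no overlap in either (exact two-sided permutation p = 0.1 each, the smallest that 3 against 3 libraries allow). Without glutamine it differed by -11.2 points between p53-null and WT cells (exact permutation p = 0.1). In complete medium the lines differed by 0.106 points and overlapped (exact permutation p = 0.6).

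The sum of both exchangers was 32.5 ± 0.251 RPKM without glutamine and 33.9 ± 0.961 RPKM in complete medium in the p53-null line (SD, n = 3 each). In the WT line it was 16.6 ± 0.372 RPKM without glutamine and 26.1 ± 0.157 RPKM in complete medium. The sums of the p53-null groups thus lay close together, while the WT line carried less of both exchangers without glutamine. The sum was not tested.

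**Figure D2:**
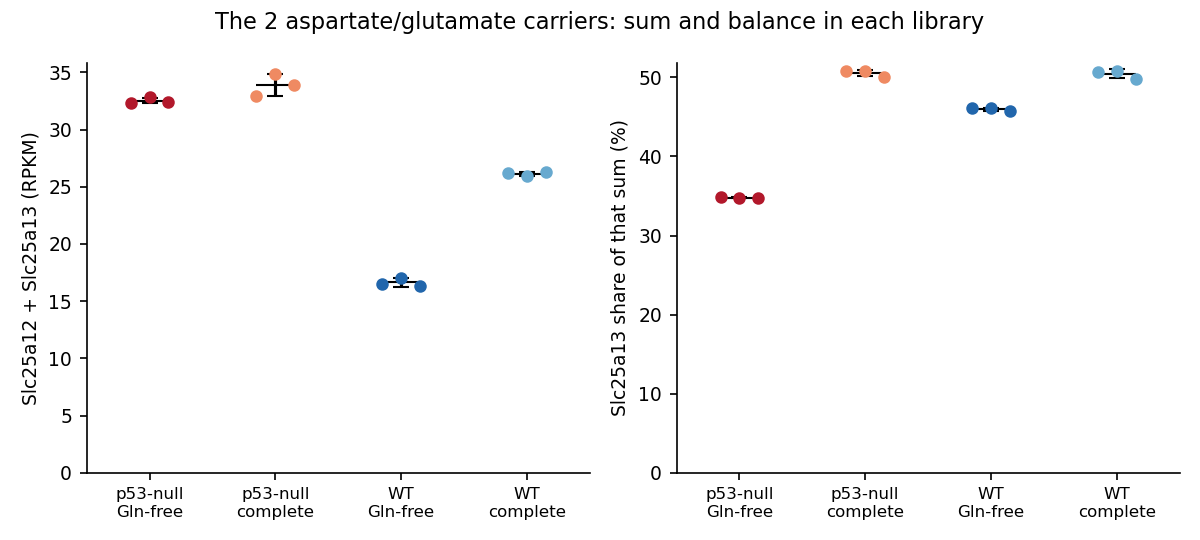
Left, the sum of Slc25a12 and Slc25a13 in RPKM; right, the share of Slc25a13 in that sum in percent; points are libraries, bars the mean and SD of 3, and both axes start at 0. The sum is lowest in WT cells without glutamine, and the share is lowest in p53-null cells without glutamine, at 34.7 to 34.9%.

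Slc25a22, the mitochondrial glutamate carrier (ENSMUSG00000019082, chromosome 7, 141429744 to 141437892, minus strand), was higher without glutamine in the WT line, the opposite of Slc1a3, Slc25a12 and Slc25a13 there. The p53-null libraries held 7.49, 7.92 and 7.91 RPKM without glutamine and 7.58, 7.68 and 7.87 RPKM in complete medium. The WT libraries held 5.68, 5.92 and 5.85 RPKM without glutamine and 3.13, 3.21 and 3.35 RPKM in complete medium. The p53-null groups overlapped, the WT groups did not, and every p53-null library lay above every WT library. In the WT line Slc25a22 rose by 80.0%, a log2 change of 0.69 (SE 0.030, limma adjusted p = 7.61e-11). In the p53-null line the log2 change was 0.01 (SE 0.030, limma adjusted p = 0.772). It became -0.10 with each library centred on its median and -0.08 after quantile normalization (limma adjusted p = 0.0100 and 0.0175). The responses differed by -0.68, p53-null minus WT (SE 0.043, limma adjusted p = 6.56e-09). Between p53-null and WT cells the log2 change was 0.36 without glutamine (limma adjusted p = 7.61e-08). It was 0.23 with centred libraries and 0.18 after quantile normalization, and was called under both. In complete medium Slc25a22 was 2.39-fold higher in p53-null cells, a log2 change of 1.04 (limma adjusted p = 1.08e-12).

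The order of levels, which RPKM allows since it is per length, differed between the groups. In p53-null cells without glutamine it ran Slc25a12, Slc25a13, Slc25a22, Slc1a1 and Slc1a3 from high to low. In p53-null cells in complete medium Slc25a13 and Slc25a12 overlapped at the top, followed by Slc25a22, Slc1a3 and Slc1a1. In WT cells without glutamine the order was Slc25a12, Slc25a13, Slc25a22, Slc1a3 and Slc1a1. In WT cells in complete medium Slc1a3 came first, then the overlapping pair of Slc25a13 and Slc25a12, then Slc25a22 and Slc1a1. All other neighbours in these orders had no overlapping libraries. The order of Slc1a3 and Slc1a1 in p53-null cells rests on few reads. In complete medium their nearest libraries held 0.0226 and 0.0192 RPKM, an estimated 4 and 3 reads. Slc1a3 thus moved between the top and the bottom of the order, and the exchangers stood above Slc25a22 in every group.

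**Figure D3:**
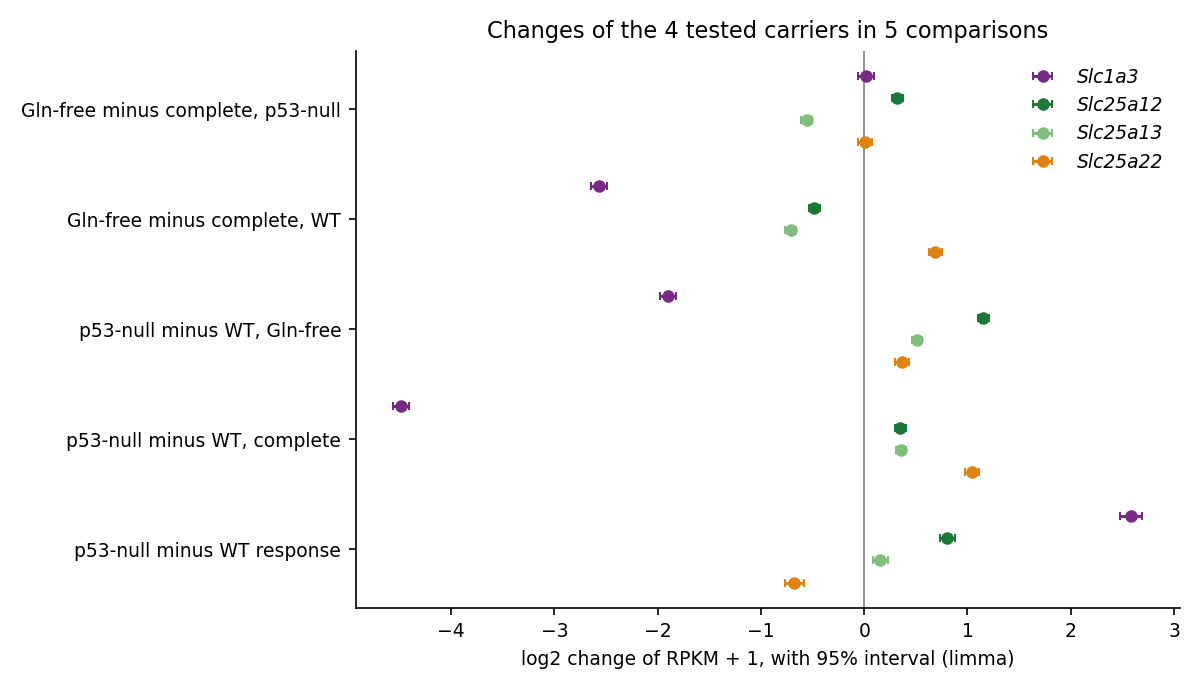
log2 change of RPKM + 1 for the 4 tested carriers in 5 comparisons, with the 95% interval from limma; positive values mean higher in the group named first, and the bottom row is the p53-null response minus the WT response. Slc1a3 reaches -4.48 between the lines in complete medium, and its medium response in the p53-null line lies at 0.02.

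Most tested genes differed in these comparisons, and the carriers were read against that background. For the medium in the p53-null line, 50% of the 11461 tested genes were called higher and 32% lower at an adjusted p under 0.05, and with centred libraries 4525 were higher and 4984 lower instead of 5732 and 3671. Of the carriers, Slc25a12 was higher, Slc25a13 was lower, Slc1a3 and Slc25a22 did not pass and Slc1a1 was not tested. For the medium in the WT line, 46% of genes were called higher and 44% lower, and Slc25a22 was higher while Slc1a3, Slc25a12 and Slc25a13 were lower. For p53-null against WT cells, 51.4% were higher and 40% lower without glutamine (5890 and 4584 genes, 5002 and 5397 with centred libraries, 6661 and 3813 with a common RPKM sum), and 48.4% were higher and 42.5% lower in complete medium. Slc25a12, Slc25a13 and Slc25a22 were higher and Slc1a3 lower in both. For the difference of the responses, 46.4% of genes were positive and 38.4% negative, with Slc1a3, Slc25a12 and Slc25a13 positive and Slc25a22 negative. A call alone was therefore common. The median absolute log2 change of all tested genes was 0.27 for the medium in the p53-null line and 0.51 in the WT line. Between p53-null and WT cells it was 0.48 without glutamine and 0.49 in complete medium, and for the difference of the responses it was 0.42. Some called carrier changes were smaller than these medians. They were Slc25a12 for the medium in the WT line and Slc25a13 for the difference of the responses. Between the lines they were Slc25a12 and Slc25a13 in complete medium and Slc25a22 without glutamine. The other called carrier changes were larger. The comparisons share groups, since each group enters both a medium and a line comparison, so their results are not independent.

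**Figure D4:**
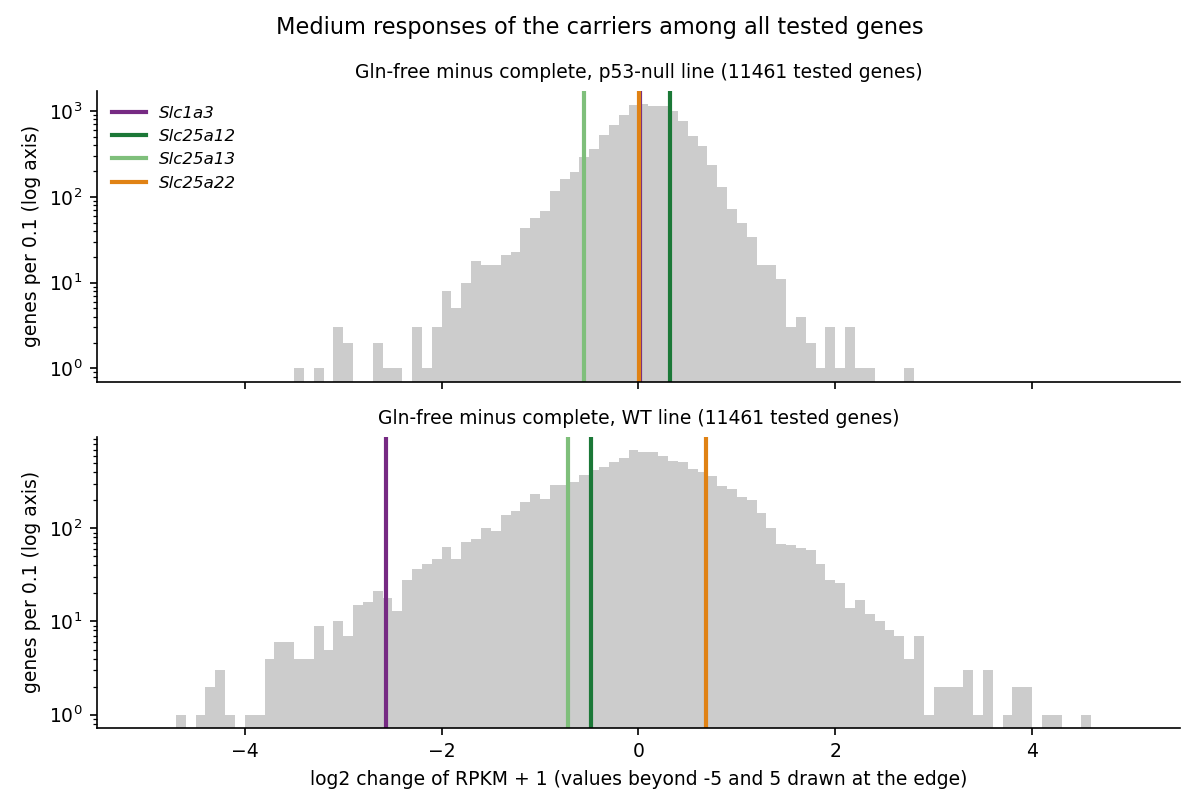
Histograms of the log2 change of RPKM + 1 without against with glutamine over 11461 tested genes, in bins of 0.1 on a log count axis, for the p53-null line (top) and the WT line (bottom); coloured lines mark the 4 tested carriers. In the p53-null line Slc1a3 and Slc25a22 lie on each other near 0, and in the WT line Slc1a3 lies in the left tail at -2.57.

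The other genes of glutamate and aspartate transport and use were taken from lists of textbook members, described by counts and medians with no test of a list. In what follows, rose and fell mean a limma adjusted p under 0.05. Of 5 other SLC1 genes, 2 were tested, the neutral amino acid exchangers Slc1a4 and Slc1a5, the second of which carries glutamine. Both rose without glutamine in both lines. Slc1a5 averaged 45.7 ± 0.912 RPKM without glutamine and 27.7 ± 0.314 RPKM in complete medium in the p53-null line, and 102 ± 3.92 RPKM and 17.2 ± 0.152 RPKM in the WT line in the same media. Its log2 changes were 0.70 in the p53-null line and 2.51 in the WT line, and those of Slc1a4 were 0.78 and 1.79. The responses differed, p53-null minus WT, by -1.805 for Slc1a5 and -1.01 for Slc1a4 (limma adjusted p = 8.27e-14 and 2.15e-11). Their median log2 change was 0.74 in the p53-null line and 2.15 in the WT line, where the medians of all tested genes were 0.08 and 0.01. Slc1a4 and Slc1a5 thus rose in the WT line where Slc1a3 fell. The untested members Slc1a2, Slc1a6 and Slc1a7 averaged under 1 RPKM in every group. Slc1a2 averaged 0.160 RPKM without glutamine and 0.0598 RPKM in complete medium in p53-null cells, and 0.225 and 0.381 RPKM in WT cells. Slc1a7 averaged 0.210 and 0.0558 RPKM in p53-null cells and 0.347 and 0.0304 RPKM in WT cells in the same media.

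Of 6 other transporters of glutamate or aspartate, 5 were in the table and 2 were tested. Slc7a11, the cystine importer that releases glutamate in exchange, rose in both lines, by 0.95 in the p53-null line and 3.01 in the WT line on the log2 scale. In p53-null cells it averaged 6.57 ± 0.270 RPKM without glutamine and 2.93 ± 0.0909 RPKM in complete medium. In WT cells it averaged 38.0 ± 1.01 RPKM without glutamine and 3.83 ± 0.0812 RPKM in complete medium. Slc17a5, the lysosomal exporter of sialic acid, fell by 0.20 on the log2 scale in the p53-null line, and in the WT line its change of 0.02 did not pass. The median of this pair was 0.37 in the p53-null line and 1.51 in the WT line.

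Of 10 other mitochondrial carriers of amino acids and dicarboxylates, 7 were tested. Of these, 3 rose, 3 fell and 1 did not pass without glutamine in the p53-null line, and 4 rose and 3 fell in the WT line. For comparison, 50% of all tested genes were called higher and 32% lower in the p53-null line, and 46% and 44% in the WT line. The median log2 change of the 7 carriers was 0.07 in the p53-null line and 0.27 in the WT line, against 0.08 and 0.01 for all tested genes. The citrate carrier Slc25a1 fell most in both, to 7.35 ± 0.320 RPKM without glutamine against 17.2 ± 0.650 RPKM in complete medium in p53-null cells. In WT cells it fell to 7.49 ± 0.350 RPKM against 57.7 ± 1.31 RPKM. The dicarboxylate carrier Slc25a10 fell by 0.87 in the p53-null line and by 0.76 in the WT line on the log2 scale. Slc25a11 exchanges malate for oxoglutarate and is the partner of aralar and citrin in the malate-aspartate shuttle. It fell by 0.78 in the p53-null line and by 0.47 in the WT line on the log2 scale. Its responses differed by -0.31, p53-null minus WT (limma adjusted p = 3.86e-06).

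Of the 4 enzymes of the malate-aspartate shuttle, 1 rose and 2 fell in the p53-null line, and 3 rose and 1 fell in the WT line. Among all tested genes, 50% were called higher and 32% lower in the p53-null line, and 46% and 44% in the WT line. Got1, the cytosolic aspartate aminotransferase, averaged 47.9 ± 0.514 RPKM without glutamine and 30.0 ± 0.674 RPKM in complete medium in p53-null cells, and 115 ± 2.27 RPKM and 33.7 ± 0.527 RPKM in WT cells in the same media. Its log2 changes were 0.66 in the p53-null line and 1.74 in the WT line, and the responses differed by -1.08 (limma adjusted p = 1.21e-12). Mdh1, the cytosolic malate dehydrogenase, fell by 0.53 in the p53-null line and by 1.16 in the WT line on the log2 scale. Mdh2, the mitochondrial malate dehydrogenase, changed by -0.05 in the p53-null line, a call that was lost without library 1 of p53-null cells without glutamine (limma adjusted p = 0.0555) or with a common RPKM sum (limma adjusted p = 0.139) and whose direction turned after quantile normalization. Got2, the mitochondrial aspartate aminotransferase, did not pass in the p53-null line, but its change was called at -0.11 with centred libraries and at 0.04 after quantile normalization. The median log2 change of the 4 was -0.03 in the p53-null line and 0.24 in the WT line, and both lines held members that rose and members that fell. In the glycerol phosphate shuttle, the other route for reducing equivalents, 2 of 3 genes were tested, with median changes of -0.18 in the p53-null line and -0.91 in the WT line. Gpd1l fell by 0.36 in the p53-null line and by 1.30 in the WT line, and Gpd2 fell by 0.52 in the WT line.

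Of 9 enzymes that use aspartate, 2 rose and 6 fell without glutamine in the p53-null line, and 5 rose and 4 fell in the WT line. The medians were -0.10 and 0.19, against 0.08 and 0.01 for all tested genes. Of all tested genes, 50% were called higher and 32% lower in the p53-null line, and 46% and 44% in the WT line. In the p53-null line the call of Paics, an enzyme of purine synthesis, was lost after quantile normalization (limma adjusted p = 0.333). Asns, which makes asparagine from aspartate, averaged 238 ± 1.63 RPKM without glutamine and 175 ± 1.02 RPKM in complete medium in p53-null cells. In WT cells it averaged 285 ± 3.15 RPKM without glutamine and 77.6 ± 0.454 RPKM in complete medium. The log2 changes were 0.44 in the p53-null line and 1.87 in the WT line. Ass1, which joins aspartate to citrulline, averaged 0.208 ± 0.138 RPKM without glutamine and 0.939 ± 0.559 RPKM in complete medium in p53-null cells. In WT cells it averaged 2.41 ± 0.278 RPKM without glutamine and 11.3 ± 1.76 RPKM in complete medium, and it fell in both lines.

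**Figure D5:**
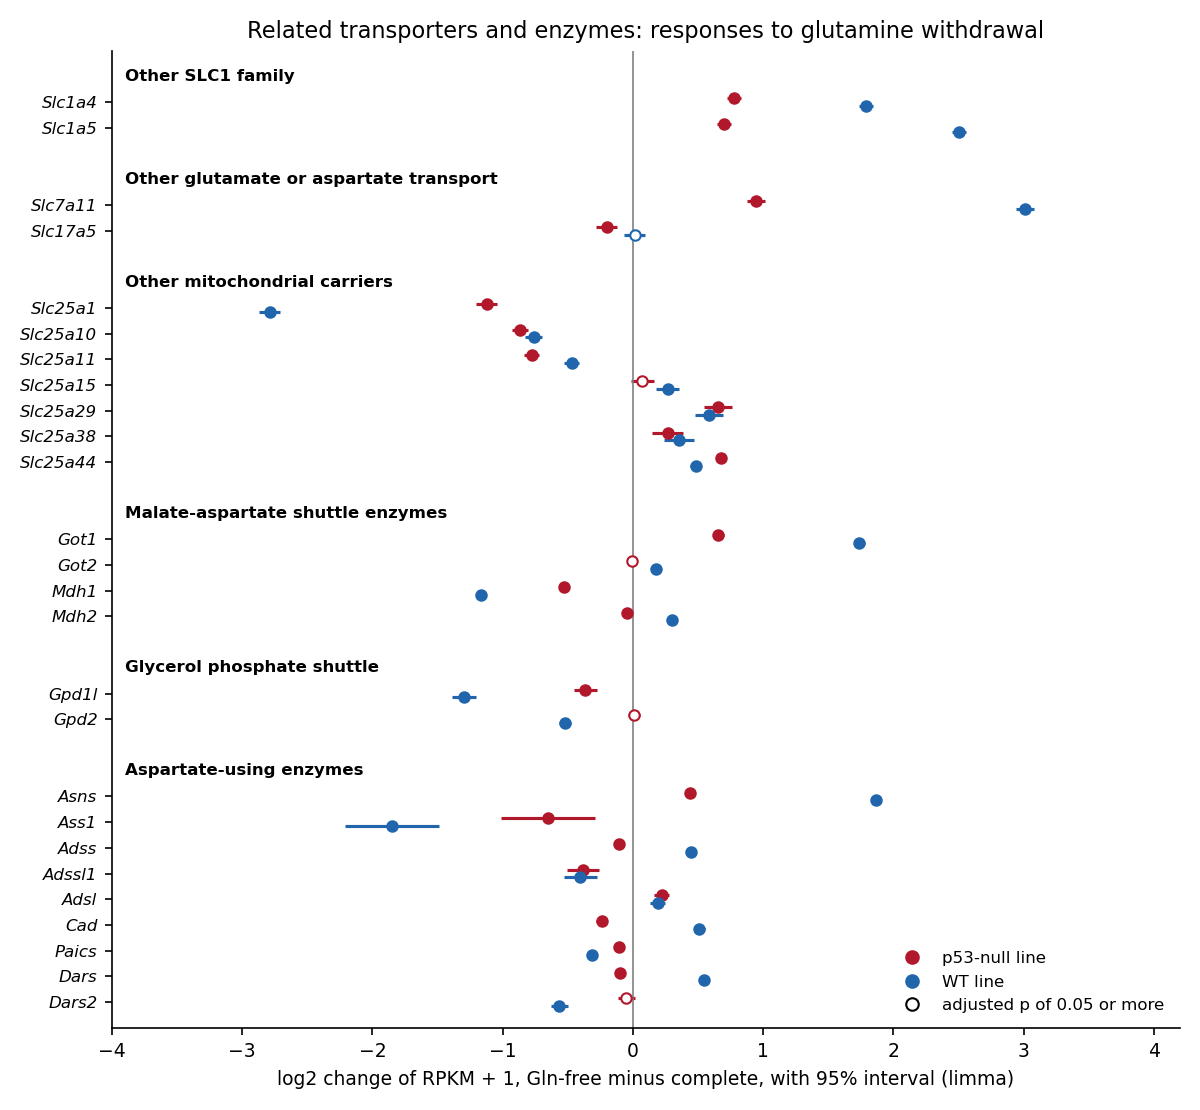
log2 change of RPKM + 1 without against with glutamine, with the 95% interval from limma, for the tested genes of 6 lists in the p53-null line (red, above) and the WT line (blue, below); open circles did not pass an adjusted p of 0.05. Slc1a4, Slc1a5, Slc7a11, Got1 and Asns lie right of 0 in both lines and farther right in the WT line.

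The genes whose levels most resembled each carrier over the 12 libraries were found among 9986 genes by Pearson's r of log2(RPKM + 1), given as a description. The libraries form 4 groups of 3, so r mostly reflects the 4 group levels. Slc1a3 was most like Slco3a1, Smoc1 and Itm2a, each with r above 0.999. Itm2a was listed at 0 on average in both p53-null groups, and averaged 1.97 RPKM without glutamine and 12.2 RPKM in complete medium in WT cells. Slc1a1 was most like Fbxo38 (r = 0.986), Zfp956 (r = 0.983) and Smad3 (r = 0.983). Slc25a12 was most like Cpd (r = 0.997), Mmd (r = 0.997) and Rab4a (r = 0.996). Slc25a13 was most like Actb (r = 0.997), Micu2 (r = 0.996) and Ipo9 (r = 0.996). Slc25a22 was most like Fam129a (r = 0.997), Eif3b (r = 0.996) and Kat2a (r = 0.996).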

How the data were processed

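RNA-seq libraries of 12 samples, 4 groups of 3, were made from 0.5 ug of total RNA with an Illumina TruSeq kit, per the labels' protocols. Per the submitters' processing notes the tools were CASAVA 1.8, HISAT2 2.0.4 and Partek with the mm10 build, and no source used here gives the annotation or the counting rules. The authors deposited 1 table of RPKM, in which reads are divided by gene length and library size, so that a few very abundant genes lower all others. Depth was set per library to bring the most values near whole reads, using values under 0.5 RPKM of genes with 1 annotated transcript. Of these values, 53.6 to 57.5% were then whole reads within 0.05. Reads were thus not recovered over the table and no count test was run. Read numbers of Slc1a1 and Slc1a3 are estimates from the steps between their own low values.

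RPKM was used as log2(RPKM + 1). The 11461 of 19439 genes that reached 1 RPKM in 3 or more libraries were fitted with limma 3.58.1 (R 4.3.3) on the 4 group means with a mean-variance trend. The 5 comparisons were adjusted by Benjamini and Hochberg within each and called at an adjusted p under 0.05. The Slc25a13 share had an exact two-sided permutation test. On simulated data for the medium comparison in WT, with 200 of 11461 genes changed, limma found 85.1% of the 67 genes with a 1.2-fold change and 100% at 1.5-fold and 2-fold, and it called 9 of 11261 genes left as they were. The changed genes stood at about 2 RPKM or more, and the noise was normal with no difference in scaling. In the real comparison most genes were called, so these rates do not carry over to it. Coordinates are from GENCODE M21 (GRCm38, the assembly of mm10).

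Named genes are the 5 carriers, Trp53, up to 2 called members of each list with the largest change in a comparison, and the 3 genes most like each carrier with at least 2 RPKM in their highest group. Got2 and Paics are named for calls that depend on the scaling, Slc1a2, Slc1a6 and Slc1a7 as untested family members, and 4430402I18Rik for its overlap with Slc1a1. The named markers are Stmn2, Tubb3, Snap25, Krt18, Krt19, Cdh1, Thy1, S100a4 and Vim. The carriers and lists were chosen with earlier results of these data known. Alternatives were another pseudocount, no filter, 3 scalings, no trend, fits of 2 groups, a replicate block and leaving out each library.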

Additional observations from a re-analysis of the deposited data

Results flagged for a closer look

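For each of the 4 tested carriers, the responses to glutamine withdrawal in the p53-null and WT lines were called different by the test of the difference itself (limma, p53-null response minus WT response, 3 libraries per group). The difference was 2.58 for Slc1a3 (adjusted p = 8.27e-14), 0.80 for Slc25a12 (adjusted p = 1.02e-10), 0.16 for Slc25a13 (adjusted p = 9.31e-04) and -0.68 for Slc25a22 (adjusted p = 6.56e-09) on the log2(RPKM + 1) scale. Slc1a3 passed the filter only through its WT libraries and was near 0 in every p53-null library, so a fall could hardly have been measured there and its value restates the fall in WT cells. The call of Slc25a13 was lost with centred libraries (difference 0.0549, adjusted p = 0.156) and after quantile normalization (difference 5.90e-06, adjusted p = 0.9999). For Slc25a12 the lines moved in opposite directions, for Slc25a13 both fell, and for Slc25a22 a rise was called in WT cells while the change in p53-null cells did not pass. Of all tested genes, 46.4% had a positive and 38.4% a negative difference at the same threshold.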

How the results depend on the processing

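Under every alternative run, the calls of the 4 tested carriers kept their direction and their side of the threshold, other than in the following cases of scaling. In the p53-null line, the medium difference of Slc1a3, 0.02 as reported, was -0.0903 with each library centred on its median (limma adjusted p = 0.0343). That of Slc25a22, 0.01 as reported, was -0.0956 with centring (adjusted p = 0.0100) and -0.0848 after quantile normalization (adjusted p = 0.0175), and ranged from -0.00200 to 0.0333 without 1 library, uncalled throughout. The difference of the Slc25a13 responses was no longer called with centring (difference 0.0549, adjusted p = 0.156) or after quantile normalization (difference 5.90e-06, adjusted p = 0.9999). Centring moved the median of all tested genes by -0.11 for the medium in the p53-null line, by -0.14 between the lines without glutamine and by -0.10 for the difference of the responses. Rescaling to a common RPKM sum moved it by 0.13 between the lines without glutamine. Centring moves every gene of a comparison by the same amount, also genes near 0 RPKM. The centred value of Slc1a3 in the p53-null line is thus not read as a fall of its RNA. Of the related genes, Slc17a5 was 0.13 higher in p53-null than in WT cells without glutamine, and this was -0.0102 with centring and -0.100 after quantile normalization. The response difference of Ass1 was not called with a pseudocount of 0.1 (0.438, adjusted p = 0.460). For Slc1a1 a pseudocount of 0.1 gave 1.08 for the medium in the p53-null line, against 0.17 with no filter and a pseudocount of 1.

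Replicate numbers did not pair the libraries, with correlations of same-numbered deviations from -0.106 to 0.0556. With the number as a replicate block, the medium change of Slc1a3 in the WT line was -2.57, 5724 genes were called higher and 3661 lower for the medium in the p53-null line, and no carrier's call changed. Of 130 pairs of a listed related gene and a comparison, 25 changed their call or direction under at least 1 alternative, 4 of them when 1 library was left out. Leaving out each of the 12 libraries in turn changed no call of a tested carrier, and the response difference of Slc25a13 stayed within 0.139 to 0.178. Slc1a1, with at most 28 reads in a library, was left out by the filter, and with no filter its medium change in the p53-null line was called (0.17, limma adjusted p = 1.35e-07).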
